A study of Fukomys damarensis and Heterocephalus glaber and Cavia porcellus with 28 samples.

Results

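The ErbB receptors, a set of their ligands and the inhibitor Errfi1 were compared across heart and liver of 4 rodent species. The members were taken by gene symbol: the receptor genes Egfr, Erbb2, Erbb3 and Erbb4, the ligand genes Nrg1, Nrg4, Btc, Hbegf and Areg, and Errfi1. Of these 10 genes, 9 were found among the 13928 rows of each tissue table by their mouse Ensembl identifier. Btc, which encodes betacellulin, was not among the rows used here. The family was proposed with results in view, chosen by the known difference of Erbb2 values between mole-rat and outgroup livers, so the liver contrasts of a mole-rat with an outgroup are given below as a description, with differences, standard errors and counts but no p-values.

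ErbB receptors are membrane tyrosine kinases that signal in pairs after a ligand of the EGF family binds. EGFR binds EGF-like ligands such as amphiregulin and HB-EGF, ERBB3 and ERBB4 bind neuregulins, and ERBB2 has no known ligand and serves as the partner of the others. ERBB3 has little kinase activity of its own. In adult rodent hepatocytes EGFR and ERBB3 are the best known receptors, and in the heart neuregulin 1 from endothelial cells acts on ERBB4 and ERBB2 of cardiomyocytes. ERRFI1, also called MIG6, binds ErbB kinase domains, inhibits them and is induced by the signal it limits.

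The naked mole-rat (Heterocephalus glaber) and the Damaraland mole-rat (Fukomys damarensis) were the mole-rats, and the guinea pig (Cavia porcellus) and the mouse (Mus musculus) the outgroups. There were 28 libraries of ribosomal-RNA-depleted total RNA from 18 animals, 10 of which gave both tissues. The hearts were from 3 naked and 5 Damaraland mole-rats with 3 guinea pigs and 3 mice, and the livers from 4, 5, 3 and 2 animals in that order. Naked mole-rats were 13 to 17 months old, Damaraland mole-rats 36 to 48 months, guinea pigs 2.3 months and mice 2 months, so species and age cannot be told apart. All animals were labelled male except the female that gave Damaraland liver replicate 4, and no strain or treatment is given in the labels. One of the Damaraland animals is labelled 48 months old for its heart and 36 months for its liver.

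Levels are given as scaled reads, which are reads recovered from the deposited values and divided by the size factor of the library. They carry no correction for gene length or for differences between the species' gene models, so levels are compared only for the same gene within a tissue, and a species difference may include a difference in how much of the gene could be counted, which was not tested. Differences are on the deposited log2-like scale, which compresses low levels: doubling 10, 100 or 1000 scaled reads moves the value by 0.28, 0.68 and 0.95 in heart and by 0.39, 0.80 and 0.97 in liver. A member was called at a limma adjusted p under 0.05 with a difference of at least 1. Recovered reads per library ran from 4089633 to 26985779 in heart, where naked mole-rat replicate 3 had the fewest, and from 11220505 to 21467939 in liver. The tissue labels fitted their markers: 7 heart muscle genes summed to between 713546.2 and 2051707.1 scaled reads in heart and between 506.4 and 3606.2 in liver, and 6 hepatocyte genes summed to between 884640.4 and 2907058.7 in liver and between 353.7 and 31382.9 in heart.

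In liver the levels of the receptor genes differed between the species. Mole-rat livers held Erbb2 at 2718.5 to 4735.0 scaled reads beside Egfr and Erbb3, guinea pig livers held 102.4 to 149.0, and mouse livers 28.3 and 30.7. Mouse livers in turn had the most Egfr, and of the 4 species mouse livers alone held Erbb4 above 3.4 scaled reads. Among the ligands Nrg1 was higher in the mole-rats, and the inhibitor Errfi1 was lower. Of the 7 members tested in liver, Erbb2 and Nrg1 were called higher and Errfi1 and Egfr lower in the mean of the mole-rats minus the mean of the outgroups, against 15.1% of all 10887 tested genes called higher and 13.0% called lower. Since the family was chosen on this contrast, these counts and those of the other liver contrasts of a mole-rat with an outgroup describe the members and are no support for a difference. All 9 mole-rat livers lay on 1 side of all 5 outgroup livers for 3 of the 7 members, against 16.1% of all tested genes.

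**Figure D1:**
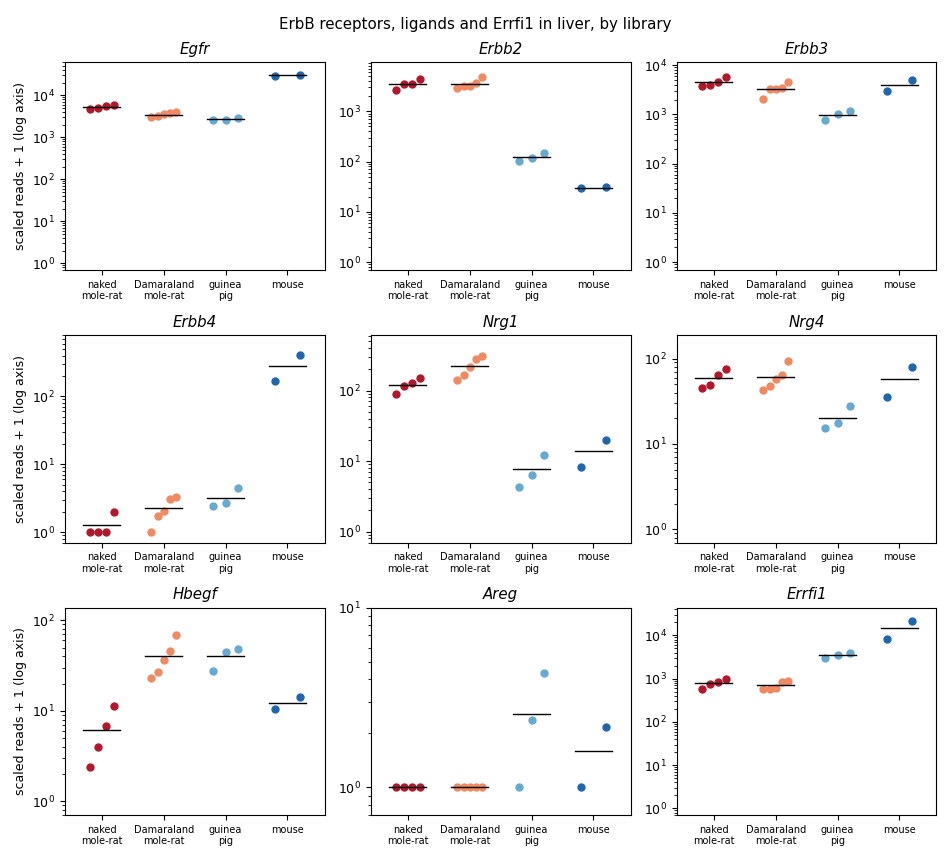
Scaled reads plus 1 (log axis) of the 9 members in each liver library, by species; each point is 1 animal, points are sorted within a species, and the black line is the species mean. Erbb2 and Nrg1 are higher and Errfi1 lower in all 9 mole-rat livers than in all 5 outgroup livers.

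Erbb2 (ENSMUSG00000062312), the partner receptor without a ligand, stood at 3476.0, 4333.1, 2718.5 and 3555.7 scaled reads in the naked mole-rat livers and at 3209.9, 3651.3, 3232.2, 4735.0 and 2976.3 in the Damaraland livers. The guinea pig livers had 149.0, 102.4 and 119.3, and the mouse livers 30.7 and 28.3. All 9 mole-rat livers lay above all 5 outgroup livers, while the mole-rat species overlapped. The group means were 3520.8 ± 660 (SD, n = 4), 3560.9 ± 700 (n = 5), 123.6 ± 23.6 (n = 3) and 29.47 ± 1.7 (n = 2). The mole-rat mean was 46.3 times the outgroup mean, a difference of 5.15 with a standard error of 0.14. It was 4.46 (SE 0.18) for the naked mole-rat minus the guinea pig, 5.81 (SE 0.21) minus the mouse, and 4.48 (SE 0.18) and 5.83 (SE 0.20) for the Damaraland mole-rat. The highest Damaraland value came from the female, and the 4 males alone ran from 2976.3 to 3651.3. The naked and Damaraland mole-rats differed by -0.02 (SE 0.16, limma adjusted p = 0.938). Guinea pig livers were higher than mouse livers, by 1.35 (SE 0.22, limma adjusted p = 5.53e-05) or 4.19 times in scaled reads.

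In a bulk library, fewer cells of a type and less RNA per cell cannot be told apart. Bile duct epithelium is a liver cell type for which ERBB2 is known, and 6 of its 7 listed marker genes were in the table, with none at 0 in any species (Sox9 was not among the rows used here). Their sum was 2431.4 to 3381.6 scaled reads in the naked mole-rat livers but 182.1 to 560.2 in the Damaraland livers, where Erbb2 was as high. Guinea pig livers had 1099.5 to 2352.1 and mouse livers 574.1 to 875.4. The plot of Erbb2 against marker sums shows both values for each library, and the part of bile duct cells in the Erbb2 result was not tested. Within the list the genes went different ways: Epcam, an epithelial adhesion gene, averaged 2290.0 scaled reads in naked and 53.57 in Damaraland livers, while Krt19, a duct keratin gene, averaged 228.5 and 131.5 there and 1223.8 in guinea pig livers. Hepatocyte markers summed to 1570159.0 to 2907058.7 in naked, 1579084.6 to 2174917.1 in Damaraland, 884640.4 to 1531064.7 in guinea pig and 1139036.7 to 1301386.9 in mouse livers.

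**Figure D2:**
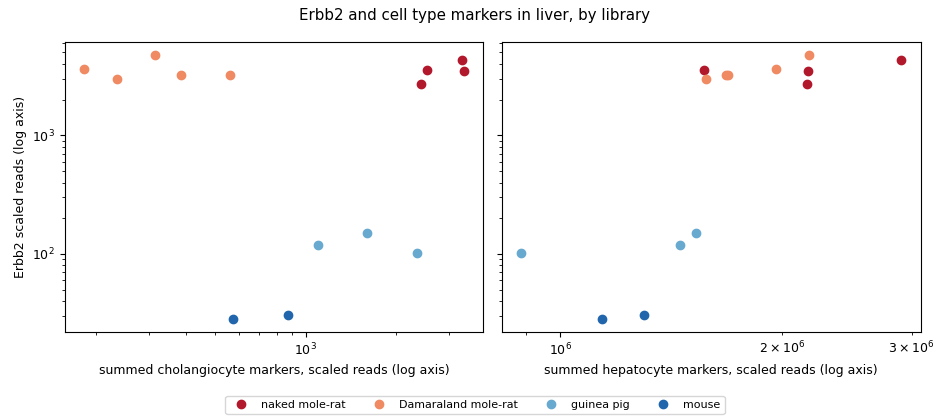
Erbb2 scaled reads in each liver library (log axis) against the summed scaled reads of 6 bile duct markers (left, log axis) and of 6 hepatocyte markers (right, log axis); each point is 1 animal, coloured by species. The Damaraland livers have the lowest bile duct sums, 182.1 to 560.2, at Erbb2 levels that overlap those of the naked mole-rat livers.

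Egfr (ENSMUSG00000020122), the receptor for EGF, HB-EGF and amphiregulin, had 28837.1 and 30221.1 scaled reads in the mouse livers. The naked mole-rat livers had 5947.4, 4657.8, 5077.1 and 5601.1, and the Damaraland livers 3894.8, 3677.1, 3021.9, 3499.7 and 3213.2. The guinea pig livers had 2506.5, 2513.2 and 2928.5. The order was mouse, naked mole-rat, Damaraland mole-rat, guinea pig, and no neighbours in it overlapped. The mouse mean was 5.55 times the naked mole-rat mean and 11.1 times the guinea pig mean, and the guinea pig minus mouse difference was -3.46 (SE 0.18, limma adjusted p = 7.02e-11). The mole-rat minus outgroup difference of -1.05 (SE 0.11) thus joined opposite parts: naked and Damaraland minus mouse were -2.47 (SE 0.17) and -3.08 (SE 0.17), but naked and Damaraland minus guinea pig were 0.99 (SE 0.15) and 0.38 (SE 0.14). Naked minus Damaraland was 0.61 (SE 0.13, limma adjusted p = 0.000601), which did not reach the size needed for a call.

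Erbb3 (ENSMUSG00000018166), the neuregulin receptor with little kinase activity, was low in a single species, the guinea pig. Guinea pig livers had 762.3, 1009.6 and 1193.1 scaled reads. Naked mole-rat livers had 4429.0, 5678.9, 3909.2 and 3808.0, Damaraland livers 3257.7, 3337.7, 2061.1, 4571.9 and 3434.1, and mouse livers 4893.5 and 3021.8. Those 3 species overlapped with each other and lay above every guinea pig liver. Guinea pig minus mouse was -1.94 (SE 0.29, limma adjusted p = 2.36e-05), and the naked and Damaraland mole-rats exceeded the guinea pig by 2.13 (SE 0.25) and 1.69 (SE 0.23). Against the mouse their differences were 0.19 (SE 0.28) and -0.25 (SE 0.27). The mole-rat minus outgroup difference of 0.94 (SE 0.18) was under the size threshold, and passed it without Damaraland replicate 3 (1.02), guinea pig replicate 3 (1.01) or mouse replicate 1 (1.11).

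Erbb4 (ENSMUSG00000062209), the other neuregulin receptor, had 401.1 and 166.7 scaled reads in the mouse livers, 570 reads in all. The naked mole-rat group held 1 read over 4 libraries, the Damaraland group 6 over 5 and the guinea pig group 9 over 3. Erbb4 was therefore below the filter on low means in liver and was not tested. The same gene was counted in every heart library of these species, at 249.7 to 1032.8 scaled reads in the mole-rats and the guinea pig, so its near absence from their livers was not seen in all tissues.

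The ligand Nrg1 (ENSMUSG00000062991), neuregulin 1, had 126.2, 87.0, 149.9 and 115.6 scaled reads in naked mole-rat livers and 164.8, 141.6, 216.8, 278.8 and 305.9 in Damaraland livers. Guinea pig livers had 11.2, 3.3 and 5.4, and mouse livers 18.9 and 7.2. No mole-rat liver overlapped an outgroup liver. The mole-rat mean was 17.3 times the outgroup mean and the difference 2.37 (SE 0.17), with the 4 contrasts of a mole-rat with an outgroup between 1.87 (SE 0.27) and 2.88 (SE 0.22). The outgroup levels rest on 28 reads over the guinea pig group and 26 over the mouse group. Naked minus Damaraland was -0.70 (SE 0.21, limma adjusted p = 0.00631), short of a call, and guinea pig minus mouse was -0.31 (SE 0.28, limma adjusted p = 0.355). Nerve and Schwann cells are a known source of and target for neuregulin 1. All 6 listed markers of these cells were in the table, and they summed to 2667.8 to 4608.0 scaled reads in naked (mainly S100b, with a mean of 2417.6), 283.3 to 383.5 in Damaraland, 322.2 to 423.0 in guinea pig and 22.5 to 34.2 in mouse livers, with Gfra3 at 0 in the mouse. Of the 5 markers tested, 4 were called higher in mole-rat than in outgroup livers. Sox10, which defines Schwann cells, averaged 0.757 scaled reads in naked, 10.51 in Damaraland, 9.25 in guinea pig and 0.362 in mouse livers. The part of these cells in the Nrg1 result was not tested.

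Nrg4 (ENSMUSG00000032311), neuregulin 4, a ligand of ERBB4, was similar in 3 species and lowest in the guinea pig. Naked livers had 44.0 to 74.5 scaled reads, Damaraland livers 42.3 to 93.5, mouse livers 34.2 and 79.0, and guinea pig livers 14.2 to 26.6. Guinea pig minus mouse was -0.81 (SE 0.26, limma adjusted p = 0.014) and was not called for its size. Naked minus Damaraland was -0.04 (SE 0.19, limma adjusted p = 0.876).

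Hbegf (ENSMUSG00000024486), which encodes HB-EGF, a ligand of EGFR and ERBB4, separated the mole-rats from each other. Naked mole-rat livers had 3.0, 1.4, 10.2 and 5.8 scaled reads, which is 24 reads over the group. Damaraland livers had 22.3, 25.8, 35.1, 45.2 and 68.0, guinea pig livers 47.6, 26.4 and 43.4, and mouse livers 9.4 and 13.0. All naked livers lay below all Damaraland and guinea pig livers, and the Damaraland mean was 7.72 times the naked mean. It was the only member, of 7 tested, called in the naked minus Damaraland contrast in liver, at -1.17 (SE 0.20, limma adjusted p = 5.8e-05), where 34.2% of all tested genes were called (16.6% higher and 17.6% lower). Without genes whose mean was under the floor + 2, Hbegf was no longer tested. Areg (ENSMUSG00000029378), amphiregulin, had 0 reads in all 9 mole-rat livers. At 3 reads, counting error only, this allows up to 4.15 scaled reads in naked replicate 2, which had the smallest size factor of them. It had at most 3.3 scaled reads in guinea pig and 1.2 in mouse livers, so no difference was detectable.

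Errfi1 (ENSMUSG00000028967), the feedback inhibitor, had 583.3, 831.8, 736.8 and 985.3 scaled reads in naked mole-rat livers and 899.9, 563.8, 819.1, 620.8 and 587.4 in Damaraland livers. Guinea pig livers had 3032.4, 3918.5 and 3503.3. The mouse livers had 8430.3 and 21769.6, the widest spread of the gene in any species. All 9 mole-rat livers lay below all 5 outgroup livers. The outgroup mean was 12.5 times the mole-rat mean, and the difference was -3.17 (SE 0.20); without mouse replicate 2, the higher mouse, it was -2.83. The 4 contrasts of a mole-rat with an outgroup ran from -2.11 (SE 0.26) for naked minus guinea pig to -4.23 (SE 0.29) for Damaraland minus mouse. Naked minus Damaraland was 0.16 (SE 0.23, limma adjusted p = 0.555), and guinea pig minus mouse was -1.96 (SE 0.32, limma adjusted p = 4.85e-05).

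Counted over the 4 liver contrasts of a mole-rat with an outgroup, which share libraries, Erbb2 and Nrg1 were called higher in all 4, against 3.42% of all tested genes, and Errfi1 lower in all 4, against 2.87%, which as the basis of the choice is again description only. The median difference of the 7 members in the mole-rat minus outgroup contrast was 0.48, against 0.02 over all tested genes, and the median size of the difference was 1.05 against 0.58. Between the mole-rats the members' median size was 0.44, against 0.68 over all genes. Naked minus guinea pig called Erbb2, Erbb3 and Nrg1 higher and Hbegf and Errfi1 lower, against 19.4% and 18.5% of all genes. Damaraland minus guinea pig called Erbb2, Erbb3 and Nrg1 higher and Errfi1 lower, against 19.1% and 17.1%. Against the mouse, each mole-rat had Erbb2 and Nrg1 called higher and Egfr and Errfi1 lower, with 21.1% and 20.1% of all genes called for the naked and 20.9% and 18.4% for the Damaraland mole-rat. Between guinea pig and mouse 1 member was called higher, Erbb2, against 18.8% of all genes, and 3 lower, Egfr, Erbb3 and Errfi1, against 18.4%. Complete separation of the libraries was common over all genes: it held for 2 of 7 members between the mole-rats (57.0% of genes), 7 between naked mole-rat and guinea pig (64.5%), 4 between naked mole-rat and mouse (71.9%), 6 between Damaraland mole-rat and guinea pig (60.3%), 5 between Damaraland mole-rat and mouse (68.4%) and 6 between guinea pig and mouse (70.7%).

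In heart the ErbB genes differed between the species as follows. Erbb2 was higher in the mole-rats, with the guinea pig between them and the mouse, Egfr was high in the naked mole-rat alone among the 4 species, and Hbegf was lowest there and highest in the mouse. Erbb4 was highest in the guinea pig. Of 7 members tested, Erbb2 was called higher and none lower in the mole-rat minus outgroup contrast, against 10.8% and 12.6% of all 10667 tested genes. Hearts of the mole-rats and the outgroups did not overlap for 2 of the 7 members, Erbb2 and Erbb4, against 15.2% of all tested genes. No member had calls of 1 sign in every mole-rat and outgroup pairing, where 2.06% of genes were called higher and 2.62% lower.

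**Figure D3:**
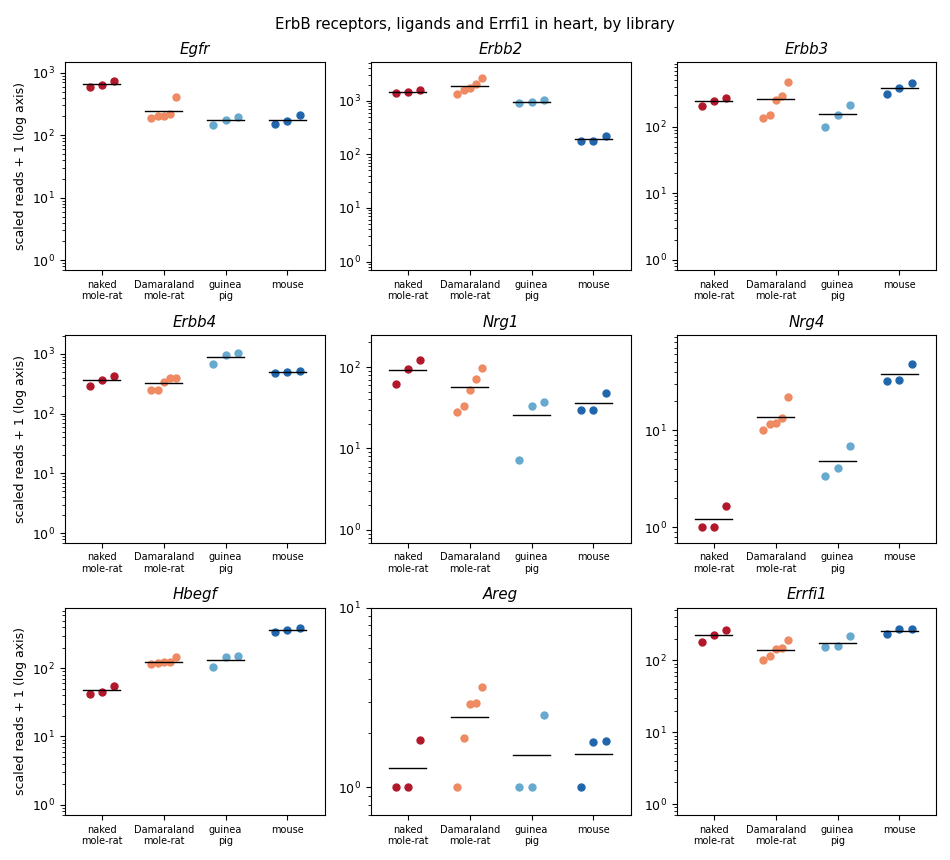
Scaled reads plus 1 (log axis) of the 9 members in each heart library, by species; each point is 1 animal, points are sorted within a species, and the black line is the species mean. Erbb2 is lowest in the mouse hearts, at 175.7 to 214.7, and Egfr is highest in the naked mole-rat hearts, at 589.6 to 733.4.

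Erbb2 had 1570.3, 1438.6 and 1411.3 scaled reads in naked mole-rat hearts and 1728.6, 2073.9, 1555.9, 1339.5 and 2595.8 in Damaraland hearts. Guinea pig hearts had 959.8, 1018.3 and 895.6, and mouse hearts 177.2, 214.7 and 175.7. Every mole-rat heart lay above every outgroup heart, and the guinea pig hearts lay between the mole-rats and the mouse. The mole-rat minus outgroup difference was 1.71 (SE 0.13, limma adjusted p = 8.65e-09), and 1.65 without Damaraland replicate 5. The mole-rats exceeded the mouse by 2.55 (SE 0.20, limma adjusted p = 9.55e-09) and 2.84 (SE 0.18, limma adjusted p = 6.16e-10). They exceeded the guinea pig by only 0.58 (SE 0.20, limma adjusted p = 0.0173) and 0.87 (SE 0.18, limma adjusted p = 0.000435), under the size threshold. Guinea pig minus mouse was 1.97 (SE 0.20, limma adjusted p = 2.69e-07). In heart the species thus formed a graded order for Erbb2, with the mole-rats overlapping at the top. Nerve and Schwann markers, 6 of 6 in the table and none at 0 in any species, were ordered likewise in heart, with sums of 1590.7 to 3488.6 in Damaraland, 947.6 to 1522.4 in naked, 512.4 to 786.9 in guinea pig and 120.3 to 152.0 in mouse hearts; their part in the result was not tested.

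Egfr had 627.4, 589.6 and 733.4 scaled reads in naked mole-rat hearts. Damaraland hearts had 186.0, 198.8, 205.6, 213.7 and 405.8, guinea pig hearts 147.5, 172.5 and 197.1, and mouse hearts 165.2, 149.4 and 206.2. The naked hearts overlapped no other species, and the other 3 species overlapped. Egfr was the only member called in the naked minus Damaraland contrast in heart, at 1.23 (SE 0.19, limma adjusted p = 2.45e-05) and a 2.69 times higher level, where 29.4% of all tested genes were called (14.2% higher and 15.2% lower). Without Damaraland replicate 5, whose Egfr stood apart from its group, that difference was 1.39. That library was also the highest of its group for Erbb2 and Erbb3. Its 6 fibroblast markers summed to 44933.8 scaled reads against 14145.3 to 17430.5 in the other 4. Its sums were also the group's highest for nerve and Schwann (3488.6), smooth muscle (14469.6), leukocyte, hepatocyte, bile duct and proliferation markers. They were not for heart muscle and endothelial markers, and the fat cell sum was the lowest. The library had the fewest recovered reads of its group, 8551766. The part of these cells or of depth in its Egfr value was not tested. Naked minus guinea pig was 1.56 (SE 0.21, limma adjusted p = 6.83e-06) and naked minus mouse 1.55 (SE 0.21, limma adjusted p = 5.75e-06). The sum of the 6 hepatocyte markers was also higher in naked hearts, at 11057.3 to 31382.9 against 3529.2 to 6924.2 in Damaraland, 3852.7 to 5532.2 in guinea pig and 353.7 to 1218.4 in mouse hearts. The sum is mostly Alb, with a mean of 20192.8 in naked hearts, and 5 of the 6 genes were called higher than in Damaraland hearts, while Apoa1 was called lower, with means of 370.1 and 1735.7. Their part in the Egfr result was not tested.

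Erbb4, the cardiomyocyte receptor for neuregulin 1, had 290.9, 428.1 and 363.0 scaled reads in naked and 249.7, 391.5, 251.4, 331.5 and 388.7 in Damaraland hearts. Guinea pig hearts had 954.6, 1032.8 and 672.5, and mouse hearts 485.1, 499.5 and 512.6. Mole-rat hearts lay below all outgroup hearts. Both mole-rats were called lower than the guinea pig, at -1.13 (SE 0.20, limma adjusted p = 0.000102) for naked and -1.27 (SE 0.18, limma adjusted p = 8.87e-06) for Damaraland. Against the mouse the differences were -0.41 (SE 0.20, limma adjusted p = 0.0769) and -0.55 (SE 0.18, limma adjusted p = 0.0112), and the mole-rat minus outgroup difference of -0.84 (SE 0.13, limma adjusted p = 2.89e-05) was under the size threshold. Erbb3 ranged from 97.8 to 215.7 in guinea pig, 133.0 to 468.3 in Damaraland, 205.5 to 268.5 in naked and 316.5 to 452.8 in mouse hearts. Its call was guinea pig below mouse, at -1.04 (SE 0.29, limma adjusted p = 0.00567), and it was under the size threshold without guinea pig replicate 3 (-0.85) or without mouse replicate 2 (-0.94).

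Nrg1 had 122.6, 61.0 and 92.6 scaled reads in naked, 32.3, 51.3, 27.1, 95.0 and 70.2 in Damaraland, 35.7, 6.1 and 32.3 in guinea pig and 47.1, 28.8 and 28.9 in mouse hearts. Neighbours in the order of species means overlapped, but every naked heart lay above every guinea pig and mouse heart. Naked minus guinea pig was 0.94 (SE 0.25, limma adjusted p = 0.00346) and naked minus mouse 0.70 (SE 0.25, limma adjusted p = 0.0206), both under the size threshold. The former passed it without naked replicate 2 (1.10), guinea pig replicate 1 (1.07) or guinea pig replicate 3 (1.04). The mole-rat minus outgroup difference of 0.60 (SE 0.17, limma adjusted p = 0.00413) was not called on the compressed scale, while voom on the recovered reads gave 1.26 and a call. So the liver and heart values of Nrg1 went the same way in the mole-rats at different sizes, which come from separately normalised tables and were not tested against each other.

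Hbegf had 40.6, 54.5 and 44.5 scaled reads in naked hearts and 123.1, 121.9, 146.3, 113.0 and 117.1 in Damaraland hearts. Guinea pig hearts had 102.7, 148.8 and 145.8, and mouse hearts 333.8, 359.5 and 385.0. Mouse hearts lay above, and naked hearts below, every heart of the other species, while Damaraland and guinea pig hearts overlapped. The mouse mean was 7.73 times the naked mean, a naked minus mouse difference of -1.94 (SE 0.15, limma adjusted p = 7.71e-09). Damaraland minus mouse was -1.15 (SE 0.13, limma adjusted p = 9.97e-07) and guinea pig minus mouse -1.09 (SE 0.15, limma adjusted p = 8.26e-06); without guinea pig replicate 1 the latter was -0.98 and no longer called. Naked minus Damaraland was -0.80 (SE 0.13, limma adjusted p = 6.27e-05), or a 2.67 times higher level in the Damaraland mole-rat. The mole-rat minus outgroup difference of -0.998 (SE 0.10, limma adjusted p = 1.69e-07) fell just short of the size threshold. It passed without naked replicate 2 (-1.03), Damaraland replicate 3 (-1.02), guinea pig replicate 1 (-1.06) or mouse replicate 1 (-1.02), and voom on the recovered reads gave -1.48 and a call.

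Nrg4 was below the filter in heart. Naked hearts held 1 read over 3 libraries, Damaraland hearts 9.0 to 20.9 scaled reads, guinea pig hearts 2.4 to 5.8 and mouse hearts 31.1 to 46.5. The naked hearts had the lowest values. In naked replicate 3, which had the smallest size factor, 3 reads would be 11.11 scaled reads. Its 0 therefore does not set it below the guinea pig hearts or the lowest Damaraland heart. In naked livers, normalised separately, the same gene was counted at 44.0 to 74.5 scaled reads. Areg had at most 2.6 scaled reads in any heart and was not tested. Errfi1 in naked hearts overlapped the hearts of each other species, and mouse hearts lay above all Damaraland and guinea pig hearts, with 181.5 to 262.7 in naked, 101.6 to 190.9 in Damaraland, 150.8 to 218.4 in guinea pig and 230.3 to 270.7 in mouse hearts. Its mole-rat minus outgroup difference in heart was -0.20 (SE 0.12, limma adjusted p = 0.16), and its largest heart difference was Damaraland minus mouse at -0.65 (SE 0.16, limma adjusted p = 0.00198).

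**Figure D4:**
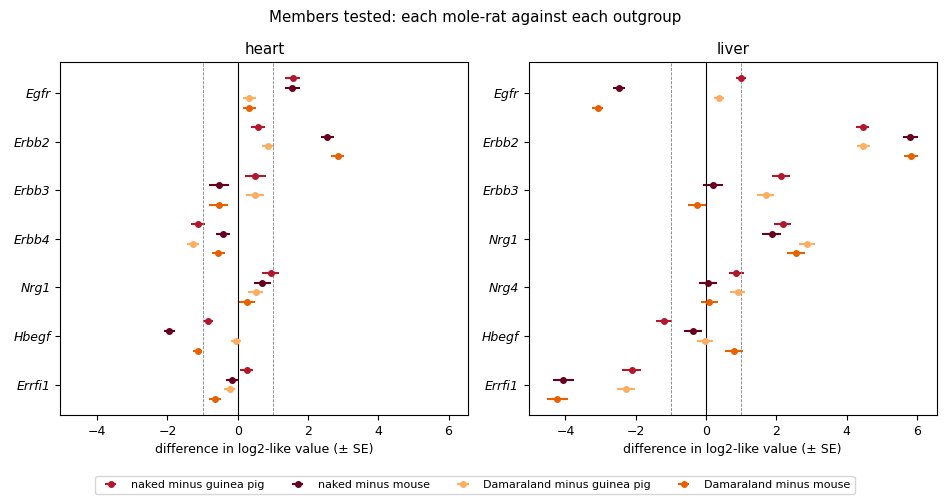
Difference in log2-like value with its standard error for the 7 members tested in each tissue, for each of the 4 contrasts of a mole-rat with an outgroup; dashed lines mark the size of 1 needed for a call. In liver all 4 points of Erbb2 and Nrg1 lie beyond 1 and all 4 of Errfi1 beyond -1, and in heart no member has all 4 points beyond the same line.

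Counted by contrast in heart, naked minus guinea pig called Egfr higher and Erbb4 lower, against 16.0% and 17.0% of all tested genes. Naked minus mouse called Egfr and Erbb2 higher and Hbegf lower, against 18.0% and 20.2%. Damaraland minus guinea pig called Erbb4 lower, against 15.1%, and none higher, against 14.7%. Damaraland minus mouse called Erbb2 higher and Hbegf lower, against 16.9% and 18.0%. Guinea pig minus mouse called Erbb2 higher and Erbb3 and Hbegf lower, against 15.2% and 16.9%. The libraries did not overlap for 2 of 7 members between the mole-rats (51.8% of genes), 5 between naked mole-rat and guinea pig (64.4%), 6 between naked mole-rat and mouse (72.4%), 2 between Damaraland mole-rat and guinea pig (56.7%), 4 between Damaraland mole-rat and mouse (65.9%) and 5 between guinea pig and mouse (74.2%). The members' median size in the mole-rat minus outgroup contrast was 0.84, against 0.54 over all genes, and between the mole-rats 0.43 against 0.62.

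The other genes of the pathway were taken from lists of ligands, ligand release, adaptors, receptor turnover, the MAPK cascade and feedback targets. Of 6 further ligand genes (Egf, Tgfa, Ereg, Epgn, Nrg2 and Nrg3) none passed the filter in heart and only Tgfa did in liver. Tgfa, an EGFR ligand, had 50.0 to 106.2 scaled reads in naked, 349.7 to 438.7 in Damaraland, 32.2 to 103.0 in guinea pig and 434.2 to 631.2 in mouse livers. Its naked minus Damaraland difference was -1.93 (SE 0.20, limma adjusted p = 1.95e-07). Like Hbegf, Tgfa was lower in all naked than in all Damaraland livers. Egf reached 283.4 scaled reads in a mouse heart and at most 18.1 in the hearts of the other species.

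Of the genes for ligand release (the ADAM proteases and the iRhom proteins that carry ADAM17 to the cell surface), none of 9 tested was called in the heart mole-rat minus outgroup contrast (10.8% of all genes higher and 12.6% lower). In liver 2 of 10 were called higher and 2 lower (15.1% and 13.0% of all genes). Timp3, an inhibitor of these proteases, was higher in mole-rat livers by 1.85 (SE 0.12) and called in 3 of the 4 pairings, with means of 1512.1 in naked, 3567.7 in Damaraland, 893.3 in guinea pig and 413.8 scaled reads in mouse. Rhbdf2, which encodes iRhom2, was lower in the mean contrast, at -1.46 (SE 0.13), but Damaraland livers (214.7 to 317.4) lay above mouse livers (121.0 and 177.0) and only the naked livers (36.4 to 46.7) below those of both outgroups, of which the guinea pig had 694.2 to 941.8. For Rhbdf2 in liver naked minus Damaraland was -1.92 (SE 0.15, limma adjusted p = 5.08e-09). In heart Rhbdf2 had 18.5 to 37.6 scaled reads in naked and 109.6 to 155.8 in Damaraland mole-rats, a difference of -1.25 (SE 0.13, limma adjusted p = 6.23e-07). Between the mole-rats, 1 of 9 was called higher (Rhbdf1, the other iRhom gene, by 1.21, SE 0.16, limma adjusted p = 7.28e-06) and 2 lower in heart, and 1 of 10 higher and 4 lower in liver (14.2% and 15.2% of all genes in heart, 16.6% and 17.6% in liver), where Adam17 was higher in naked livers by 1.15 (SE 0.15, limma adjusted p = 2.48e-06).

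Among the adaptors that couple receptors to RAS and PI3K, 1 of 14 was called higher and 1 lower in the heart mole-rat minus outgroup contrast. In liver 1 of 15 was called higher and 2 lower. Of all genes, 10.8% were called higher and 12.6% lower in heart, and 15.1% and 13.0% in liver. Gab1, a docking protein, was lower in mole-rat hearts, at -1.67 (SE 0.14, limma adjusted p = 1.83e-08), and Eps8, an EGFR substrate, was higher by 1.26 (SE 0.15, limma adjusted p = 1.04e-06). Grb7, an adaptor that binds ERBB2 and whose gene lies near Erbb2, went the opposite way to Erbb2 in liver. Grb7 had 80.7 to 196.2 scaled reads in naked and 30.1 to 132.8 in Damaraland livers, against 246.9 to 556.0 in guinea pig and 1190.2 to 1692.9 in mouse livers, and the difference was -2.74 (SE 0.25). Of the 5 Erbb2 neighbours tested in liver it was the only call, the others being Stard3, Pgap3, Mien1 and Ppp1r1b; in heart 1 of 4 was called, Pgap3, at -1.24 (SE 0.13, limma adjusted p = 4.05e-07). Between the mole-rats 1 neighbour was called in heart, Ppp1r1b, at -3.05 (SE 0.19, limma adjusted p = 7.41e-10), and none in liver. Between the mole-rats the adaptors gave 3 higher and 1 lower calls in heart and 2 and 2 in liver, with 14.2% and 15.2% of all genes called in heart and 16.6% and 17.6% in liver. For Crk, an SH2 and SH3 adaptor, naked minus Damaraland was 2.27 (SE 0.18, limma adjusted p = 1.83e-08) among hearts and 2.60 (SE 0.16, limma adjusted p = 3.24e-10) among livers. For Nck1, another SH2 and SH3 adaptor, it was -2.19 (SE 0.15, limma adjusted p = 3.5e-09) among hearts and -2.27 (SE 0.18, limma adjusted p = 6.11e-09) among livers. Shc2 was the adaptor called higher in mole-rat livers, by 1.16 (SE 0.14), but only the naked livers held it, at 87.0 to 120.0 scaled reads against at most 9.6 in any other liver.

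Of the receptor turnover genes (ubiquitin ligases, phosphatases and LRIG proteins that remove or silence receptors), 2 of 17 were called lower in mole-rat hearts and 3 of 18 in livers, near the 12.6% and 13.0% of all genes called lower, and none higher, against 10.8% and 15.1%. The largest was Nedd4, a ubiquitin ligase gene, which averaged 9285.2 scaled reads in mouse hearts and 88.6 to 230.6 in the hearts of the other 3 species, so that this difference was one of the mouse. Between the mole-rats 1 of 17 was called higher and 2 lower in heart, against 14.2% and 15.2% of all genes. In liver 1 of 18 was called higher and 3 lower, against 16.6% and 17.6%. Cblc, an epithelial member of the Cbl ligases, was lower in naked than Damaraland livers, at -2.88 (SE 0.17, limma adjusted p = 2e-10). Sh3kbp1, an adaptor in receptor uptake, was lower in naked than Damaraland hearts, at -1.64 (SE 0.25, limma adjusted p = 2.34e-05). Socs4 was higher in naked hearts by 1.35 (SE 0.25, limma adjusted p = 0.00019) and in naked livers by 1.20 (SE 0.18, limma adjusted p = 1.84e-05).

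In the MAPK cascade, Ksr1, a scaffold gene, was higher in naked than Damaraland hearts by 1.11 (SE 0.19, limma adjusted p = 8.15e-05). Of 14 feedback and immediate early target genes tested, 1 was called higher and 3 lower in mole-rat hearts, and 1 higher and 4 lower in livers, against 10.8% and 12.6% of all genes in heart and 15.1% and 13.0% in liver. Egr1, an immediate early gene, was higher in the mole-rat hearts by 1.46 (SE 0.23, limma adjusted p = 3.57e-05), with calls in 2 of the 4 pairings: naked hearts had 485.3 to 1501.5 scaled reads, while Damaraland hearts (80.4 to 308.1) overlapped guinea pig (85.1 to 105.9) and mouse hearts (107.4 to 174.9). In the same contrast Spred1, an inhibitor of RAS signalling, was lower, at -1.47 (SE 0.12, limma adjusted p = 1.14e-08). In liver Spry2, an inhibitor of the same pathway, was higher by 1.64 (SE 0.15) and Phlda1 lower, at -3.43 (SE 0.18). Phlda1 had the same ordering as Errfi1, with 4.6 to 37.2 scaled reads in mole-rat, 182.4 to 306.5 in guinea pig and 775.1 to 787.9 in mouse livers. Between the mole-rats 3 of 14 feedback genes were called higher in naked hearts and none lower, against 14.2% and 15.2% of all genes. The largest was Fos, another immediate early gene, higher by 3.12 (SE 0.20, limma adjusted p = 1.59e-09). In liver none was called higher and 1 lower, against 16.6% and 17.6% of all genes. The liver call was Spred2, at -1.60 (SE 0.13, limma adjusted p = 1.09e-08).

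Genes whose log2-like values followed a member most closely were ranked by Pearson correlation over the 14 libraries of a tissue, among 9326 genes in liver and 8696 in heart. Because libraries cluster by species, these correlations describe the species means more than variation between animals. Erbb2 in liver was closest to Vasn (r = 0.989) and Ttll3 (r = 0.986), and Nrg1 to Fbxo10 (r = 0.976) and Zfyve28 (r = 0.975). Egfr in liver was closest to Ado (r = 0.990) and Gna12 (r = 0.989), Errfi1 to Fam136a (r = 0.976) and Gorasp1 (r = 0.975), and Hbegf to Gnpda2 (r = 0.972) and Oplah (r = 0.956). In heart Erbb2 was closest to Haus4 (r = 0.980) and B4galnt3 (r = 0.978), and Egfr to Vps33a (r = 0.959) and Endod1 (r = 0.955).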

How the data were processed

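Sequencing libraries of ribosomal-RNA-depleted total RNA were made from heart and liver. The deposited values are variance-stabilised and log2-like, transformed separately per tissue; cutadapt, Salmon 013.1, DESeq2 and the mouse build GRCm38 are named in the submitters' processing notes, without roles, and the indexes and the assignment of genes across species are not given in the sources used here. Columns of other series (26) were not used. Inverting the transform gave whole reads for 100% of values (tolerance 0.001); these gave depth and the scaled reads, which are normalised reads and not the input of the main test. The floor, the value that stands for 0 reads, is 5.3645 for hearts and 4.2893 for livers. limma 3.58.1 (R 4.3.3) was fitted per tissue to the deposited log2 values with 4 species coefficients and empirical Bayes with a variance trend, p-values were adjusted over all tested genes (Benjamini-Hochberg), after leaving out genes with a mean under the floor + 1. The samples are separate animals, and where groups hold 2 to 5 libraries all species share the spread estimate. No 2 libraries of a group agreed within sampling noise. The members, the pathway and marker lists and the tests were chosen with earlier results of these data known. All members are named, with, for each pathway list and contrast described, the largest called difference in each direction, and for a member called between the mole-rats and outgroups or between the mole-rats, the 2 genes most correlated with it; the counts of the MAPK cascade list are not reported here; other pathway genes named (Egf, Stard3, Mien1, Ppp1r1b) and marker genes were picked after their values were seen. Alternatives covered the size threshold, the filter, centring, quantile normalization, voom on recovered reads, the variance trend, the replicate number as a block, and each library left out in turn. The fit was tested on simulated reads.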

Additional observations from a re-analysis of the deposited data

Results flagged for a closer look

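Egfr in Damaraland heart replicate 5 stood at 8.92 on the log2-like scale, while the other 4 hearts ran from 8.03 to 8.18; the gap was 0.833 of the group's range, above the critical value of 0.71. Of 21 groups of 4 or 5 libraries tested this was 1, and chance gives about 1 in 20. Among 42 member contrasts tested in both tissues, 3 separated the species completely in opposite directions in heart and liver, a share of 7.14%, against 7.81% of the same contrasts over the 10109 genes tested in both tissues. For Egfr the naked mole-rat minus mouse difference was 1.55 in heart and -2.47 in liver. For Hbegf the Damaraland minus mouse difference was -1.15 in heart and 0.79 in liver, and the guinea pig minus mouse difference was -1.09 in heart and 0.82 in liver. The tissue tables were normalised separately, and these differences between tissues were not tested.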

How the results depend on the processing

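Of 7 tested members, the number called in the heart mole-rat minus outgroup contrast was 1, and became 2 under quantile normalization, 4 with voom on the recovered reads and 5 without the size threshold (1 to 2 when each library was left out). In the heart naked minus Damaraland contrast it was 1, and became 2 with voom and 3 without the size threshold (1 in each leave-one-out fit). In liver the naked minus Damaraland count of 1 became 0 under the stricter filter, which leaves Hbegf out, and 3 without the size threshold (1 in each leave-one-out fit). The 5 pairwise contrasts with an outgroup gave 11 calls in heart, 19 without the size threshold and 10 to 12 leaving out each library, and 21 in liver, 28 without the size threshold, 27 with voom and 21 to 22 leaving out each library. The liver mole-rat minus outgroup count of 4 became 6 without the size threshold, 5 without the filter and 4 to 5 leaving out each library. Across all alternatives Erbb2 in that contrast ran from 4.99 to 5.85, Nrg1 from 2.19 to 4.23, Errfi1 from -3.51 to -2.83 and Egfr from -1.17 to -1.01. Values that changed sign were all uncalled. In heart, Egfr guinea pig minus mouse was 0.0201 after median centring; Erbb3 mole-rats minus outgroups was 0.0243 after centring and 0.0291 after quantile normalization; Erbb3 naked minus Damaraland was -0.009 and -0.0141; and Hbegf Damaraland minus guinea pig was 0.0071 after quantile normalization. In liver, Erbb2 naked minus Damaraland was 0.0211 after centring; after quantile normalization Nrg4 was 0.0295 for naked minus Damaraland, -0.14 for naked minus mouse (-0.0313 with voom) and -0.17 for Damaraland minus mouse. When each library was left out in turn, sign changes lay within these ranges. In heart, Egfr guinea pig minus mouse ran from -0.0784 to 0.0888, Erbb3 mole-rats minus outgroups from -0.12 to 0.0762, Erbb3 naked minus Damaraland from -0.15 to 0.20 and Hbegf Damaraland minus guinea pig from -0.17 to 0.0078. In liver, Erbb2 naked minus Damaraland ran from -0.12 to 0.10, Erbb3 from -0.15 to 0.54 for naked and from -0.59 to 0.0958 for Damaraland minus mouse, and Hbegf Damaraland minus guinea pig from -0.17 to 0.0697. Nrg4 in liver ran from -0.13 to 0.0797 for naked minus Damaraland, from -0.33 to 0.44 for naked minus mouse and from -0.29 to 0.47 for Damaraland minus mouse. Replicate numbers cannot mark shared animals across species, since each species has its own animals. Deviations from the species means correlated at -0.261 to 0.301 (heart) and -0.232 to 0.15 (liver) between same-numbered libraries of different species. The replicate block left the heart and liver mole-rat minus outgroup counts at 1 and 4, the naked minus Damaraland counts at 1 and 1 and the pairwise counts at 11 and 21, and turned Nrg4 naked minus Damaraland in liver to 0.0797. Leaving out a mouse liver leaves 1, assumed to vary like the other groups. Depth limits Areg, liver Erbb4 outside the mouse and Nrg4 in naked heart, where few or no reads were counted.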
